A study of Arabidopsis thaliana with 12 samples.

Results

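The plastid-encoded genes of Arabidopsis thaliana were taken as all ids of the count table that begin with ATCG and that hold 10 or more counts summed over the 12 libraries. The rule gave 93 genes, out of 133 plastid ids and 33602 genes in the table. Of the 40 plastid ids left out, 8 had no counts in any library. The totals just inside the threshold were 10, 11 and 13 counts, and those just outside were 9, 9 and 9 counts.

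Whole seedlings, labelled as 12 days old and of the Col-0 background, were sequenced in 3 libraries for each of 4 groups. The groups were m9 with ABA, m9 without treatment (control), WT with ABA and WT without treatment. The name m9 is that of the labels, and the study's methods give OK100-oct, a line that carries mutations in a set of RAF protein kinase genes, as the mutant that was sequenced. ABA is abscisic acid, a plant hormone of the response to drought. The dose and duration of ABA for the sequenced samples are not given in the sources used here. The labels number the 3 libraries of a group without saying whether they came from separate cultures, so the p-values measure the spread between these samples, which may be technical.

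The plastid genome of land plants encodes mainly proteins of photosynthesis, parts of its own transcription and translation machinery, and ribosomal and transfer RNAs. Its genes are transcribed by a bacterial-type RNA polymerase, whose core is plastid-encoded and whose sigma factors and associated proteins are nuclear-encoded, and by phage-type RNA polymerases encoded in the nucleus. Plastid transcripts generally lack the long poly(A) tails of nuclear messenger RNA, so a library made by poly(A) selection recovers only a small part of them, in part through stretches of A within the transcript. Whether poly(A) RNA was selected is not given in the sources used here.

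The files and the reference pair no ATCG id with a gene symbol. Notes in the RefSeq annotation (assembly TAIR10.1) give a product for 5 of the ids described here. ATCG00530 is a CemA-like protein of the plastid envelope, ATCG00670 is the plastid-encoded CLP P, the catalytic subunit of a protease, and ATCG00660 and ATCG01310 are the ribosomal proteins L20 and L2. ATCG00430 is noted as photosystem II reaction center protein G, with no gene of that name matched in the plastid annotation. This name was not checked further, and no role in photosystem II is taken from it. The other ids are given by id only, with no role.

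For the 4 that matched a plastid gene (cemA, clpP, rpl20 and rpl2), a stretch of 30 bases of the coding sequence is shown because a run of A is a possible start for an oligo(dT) primer. The capitals mark the longest run of A in the coding sequence, and coordinates are those of the plastid genome (Pltd) in TAIR10.1.
cemA (Pltd:60741-60770, plus strand): atggcAAAAAAgaaagcattcattcctttt
clpP (Pltd:70830-70859, minus strand): tatctcagtatagAAAAggataccaaagat
rpl20 (Pltd:68512-68541, minus strand): tatacaatttcgaatgacatAAAAAAAtaa
rpl2 (Pltd:84422-84451, minus strand): tccaattggtagAAAAAAAcccgtaacccc
The runs are 6, 4, 7 and 7 bases long in the order shown. Over 84 plastid coding sequences the median longest run was 6 bases, and 36.9% of them held a run of at least 7. All 4 genes are protein-coding. The cemA gene is a single exon from 60741 to 61430 on the plus strand, and rpl20 a single exon from 68512 to 68865 on the minus strand. The clpP gene spans 69910 to 71882 on the minus strand with 3 coding parts. The rpl2 gene has 2 identical copies, at 84337 to 85843 on the minus strand and 152806 to 154312 on the plus strand. Each has 2 coding parts, and reads of the copies cannot be told apart. The stretch shown occurs in both, and which copy ATCG01310 stands for is not given in the sources used here. Its 1907 counts may come from either copy. In the plastid genome as a whole (154478 bases), 34.0% of 50-base windows occur again in the plastid, 2.43% also occur in a nuclear chromosome and 1.21% also occur in the mitochondrial genome, and how reads with several matches were counted is not given in the sources used here.

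Plastid genes took a small share of every library. Of the counts of a library, plastid ids held 0.0409%, 0.0691% and 0.0320% in m9 with ABA and 0.0339%, 0.0307% and 0.0379% in m9 control. They held 0.0323%, 0.0340% and 0.0332% in WT with ABA and 0.0384%, 0.0329% and 0.0282% in WT control. The second m9 ABA library lay above all the others, with a Wilson 95% interval of 0.0679% to 0.0702% that covers counting error only, and the other 11 libraries overlapped between groups. Total counts lay between 16632701 and 26661613, and plastid counts between 5468 and 14490, of a library.

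No pair of groups was shown to differ in mean plastid share. It was 0.0473% ± 0.0193 (SD, n = 3) in m9 with ABA and 0.0341% ± 0.00362 (SD, n = 3) in m9 control, a ratio of 1.39 (p = 0.3, exact two-sided permutation test). It was 0.0332% ± 0.000805 in WT with ABA and 0.0332% ± 0.00510 in WT control (SD, n = 3 each), a ratio of 0.999 (p = 1, exact permutation test). Between genotypes, the ratio of m9 to WT was 1.43 with ABA (p = 0.4, exact permutation test) and 1.03 in the control (p = 0.8, exact permutation test). A comparison of 3 against 3 libraries cannot give a p below 0.10. In seedling RNA, fewer plastids or plastid-rich cells and less RNA per plastid cannot be told apart.

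**Figure D1:**
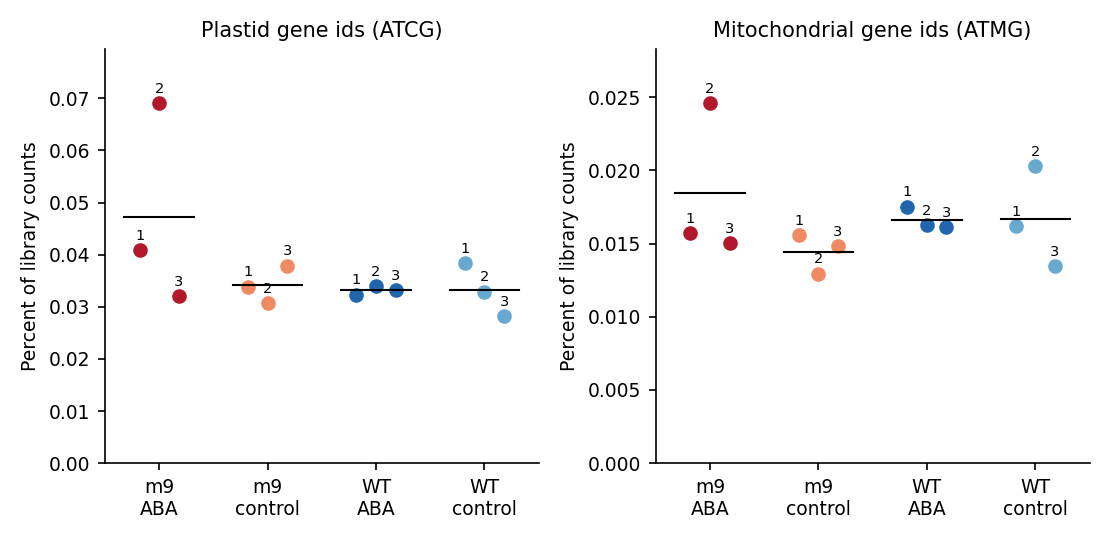
Percent of library counts on plastid ids (left) and mitochondrial ids (right) for each library, with replicate numbers beside the points and group means as lines. The second m9 ABA library is highest in both panels, at 0.0691% and 0.0246%.

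The plastid counts were concentrated in few ids. The id with the most counts, ATCG00020, held 12.2% of all plastid counts and the top 10 held 61.4%. At the other end, 18 of the 93 genes had fewer than 100 counts over all 12 libraries, 22 had 1000 or more and 53 lay between these limits. A count was seen in every library for 82 of the 93. Of the 93, 76 passed the filter on low counts and were tested, and the remaining 17 are described by their counts only.

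Levels are given as CPM, counts scaled to a common library size after edgeR's TMM correction for composition. ATCG00490, the second by counts, had 47.0, 76.3 and 33.2 CPM in m9 with ABA and 38.2, 30.6 and 47.3 CPM in m9 control. It had 39.1, 42.9 and 45.2 CPM in WT with ABA and 40.5, 40.9 and 35.0 CPM in WT control. The groups of this id overlapped in both genotypes, and the highest value was again that of the second m9 ABA library.

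The second m9 ABA library stood apart for most plastid genes. In it, 83 of the 93 were above the mean of the other 2 m9 ABA libraries and 10 were below, 50 were at least 2-fold above, and the median fold was 2.1. The plastid share was 1.89 times and the mitochondrial share 1.60 times the mean of the other 2 libraries. Nuclear ribosomal RNA took 0.141% of its counts, against 0.107% and 0.111% in the other m9 ABA libraries. The part of these differences in the results was not tested beyond leaving the library out.

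The excess was not even across the genes. ATCG01020 had 10.3, 4.07 and 11 CPM in the 3 m9 ABA libraries, so that it was lowest where most plastid genes were highest, and ATCG00080 had 11, 2 and 26 counts there. ATCG00190 had 36.5, 27.2 and 27.2 CPM, with no excess in the second library. ATCG01250, one of the genes not tested, had 27 counts in the second m9 ABA library and at most 3 in any other. It had 33 counts in total and reached the threshold of 10 only through that library. Its excess there thus follows from the selection, and it is counted among the 83 and the 50 above.

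**Figure D2:**
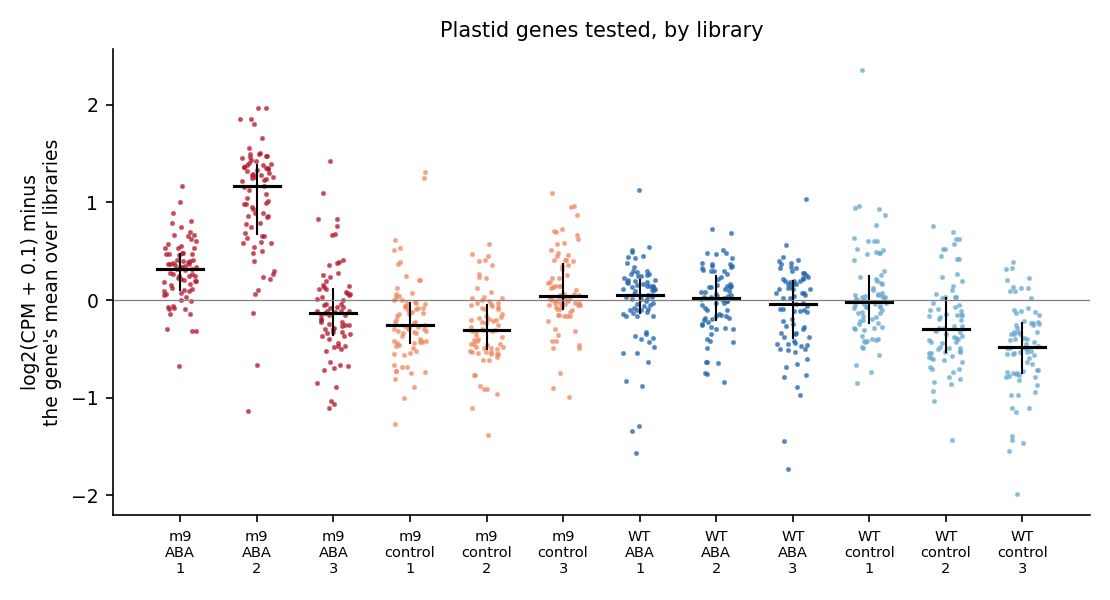
log2(CPM + 0.1) of each of the 76 tested plastid genes minus the gene's mean over the 12 libraries, by library. Points are genes, horizontal lines medians and vertical lines the quartile range; the second m9 ABA library has the highest median, and single genes there lie below 0.

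The spread between replicates was wide for many plastid genes. The biological coefficient of variation, the part of the spread between replicates beyond counting error, had a median of 26.0% over the 76 tested plastid genes and 10.9% over all 20617 tested genes, and ran between 7.73% for ATCG00480 and 82.4% for ATCG00080. The fitted trend at the level of the plastid genes was 17.6%. These estimates use all 12 libraries, with the second m9 ABA library among them, and are not given without it. Between replicates, the chi-square per degree of freedom over the plastid genes was 26.8 in m9 with ABA (6.30 without the second library) and 3.9 in m9 control, and it was 1.97 in WT with ABA and 4.69 in WT control, where 1 is the value of counting error alone. In WT with ABA the plastid libraries were thus closest to counting error.

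The comparison of ABA with control in m9 asked how plastid transcripts changed with the hormone in the mutant. With all libraries, 26 of the 76 plastid genes rose and 0 fell at a false discovery rate (FDR) below 0.05, beside 25.9% of all tested genes called higher and 26.1% called lower. With a minimum of 3-fold, which the study's methods use, 0 were called, beside 3.56% of all tested genes higher and 2.43% lower. The log2 fold changes of the 26 lay between 0.38 and 1.39. The median log2 fold change was 0.70 over the 76 plastid genes and -0.01 over all tested genes, and 71 of the 76 were positive. Without overlap between the libraries, 17 of the 76 were higher with ABA and 0 lower, against 32.2% and 32.8% of all tested genes, and 10 of the 26 were among the 17.

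Without the second m9 ABA library, 5 plastid genes rose in m9, all of them among the 26, and the median log2 fold change was 0.28. Without the third m9 ABA library 44 rose, without the first m9 control library 8, and without the second 10. For such changed settings, here and below, the share of all tested genes called is not given. With library totals in place of TMM factors 9 rose, and 0 did when the second m9 ABA library was also left out, while relative to the sum of plastid counts, which sets the plastid total equal in all libraries, 0 rose and 1 fell.

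**Figure D3:**
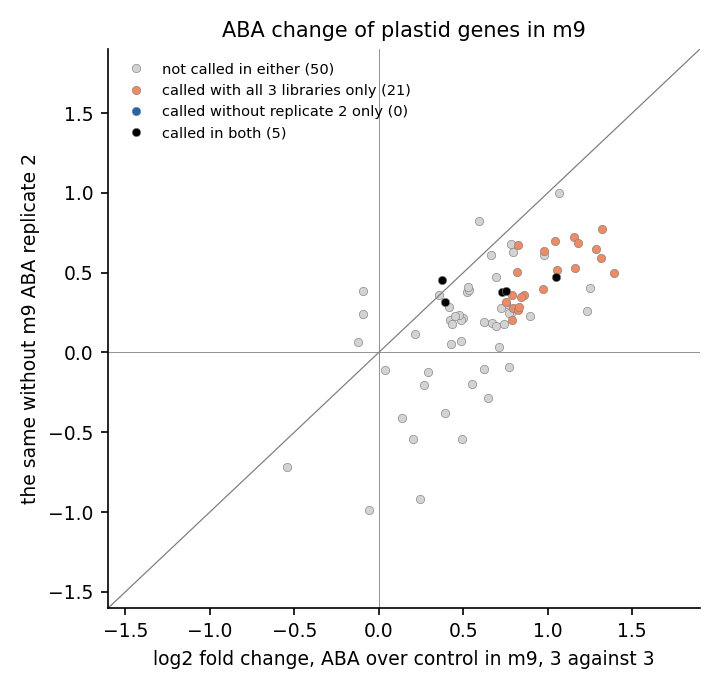
log2 fold change of ABA over control in m9 for the 76 tested plastid genes, with all libraries on the horizontal axis and without the second m9 ABA library on the vertical axis. Most points lie below the diagonal; 21 genes passed the test with all libraries only and 5 in both.

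ATCG00480 was the plastid gene with the least spread between replicates. It had 32.7, 37.3 and 30.5 CPM in m9 with ABA and 24.8, 24.4 and 27.2 CPM in m9 control, and the groups did not overlap. It rose by a log2 fold change of 0.40 ± 0.09 (SE; adjusted p = 0.00216, edgeR's quasi-likelihood test with Benjamini-Hochberg adjustment), and by 0.32 without the second m9 ABA library (adjusted p = 0.0127, edgeR), while it turned to -0.15 relative to the sum of plastid counts. ATCG00020 had 45.8, 81.2 and 42.5 CPM in m9 with ABA and 37.2, 30.9 and 33.9 CPM in m9 control. It rose by 0.73 ± 0.19 (SE; adjusted p = 0.00666, edgeR), with no overlap of the libraries, and by 0.38 without the second m9 ABA library (adjusted p = 0.0163, edgeR).

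ATCG00660, the ribosomal protein L20, had 2.00, 2.18 and 0.895 CPM in m9 with ABA and 1.09, 0.987 and 1.02 CPM in m9 control, with 1 ABA library below all 3 controls. ATCG00430 had 1.67, 3.29 and 1.47 CPM in m9 with ABA and 1.42, 0.864 and 1.84 CPM in m9 control, and these overlapped too.

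The same comparison in WT asked for the response of plastid transcripts to ABA in the wild type. Of the 76 plastid genes, 6 rose and 0 fell at an FDR below 0.05, whereas 32.2% of all tested genes were called higher and 36.4% lower. With the 3-fold minimum 0 were called, beside 7.18% of all tested genes higher and 7.16% lower. The 6 had log2 fold changes between 0.34 and 0.91, and in each of them the libraries did not overlap. The median log2 fold change of the 76 was 0.21, that of all tested genes was -0.06, and 53 of the 76 were positive. Without overlap between the libraries, 20 of the 76 were higher and 0 lower, against 33.4% and 36.7% of all tested genes.

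The number of WT calls depended on the scaling, and under the other scalings different genes passed. The TMM factors lay between 0.864 and 0.896 in WT with ABA and between 1.04 and 1.12 in WT control, so the plastid total was 378.9 ± 5.24 CPM in WT with ABA and 306.0 ± 36.6 CPM in WT control (SD, n = 3 each) where the shares of raw counts had a ratio of 0.999. With library totals, which moved the median log2 fold change of all tested genes to -0.37, 0 plastid genes rose and 4 fell. The 6 genes kept positive values there, between 0.03 and 0.61, and the 4 that fell had negative values with TMM factors too. Relative to the sum of plastid counts 0 rose and 5 fell, again other genes. Leaving out the second m9 ABA library gave 15 genes that rose in WT, the 6 among them, and moved the median of all tested genes to -0.03. The model estimates the spread of a gene from all 4 groups, so an m9 library also enters the spread used for WT. The parts of spread and scaling in the 15 calls were not tested. Without the first or the second WT ABA library 3 rose, and without the third WT control library 4 rose and 5 fell.

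In WT, ATCG00480 had 37.4, 33.8 and 35.2 CPM with ABA and 27.6, 28.8 and 27.9 CPM in the control. It rose by 0.34 ± 0.09 on the log2 scale (SE; adjusted p = 0.00392, edgeR's quasi-likelihood test with Benjamini-Hochberg adjustment), and had a value of 0.03 with library totals (adjusted p = 0.767, edgeR). ATCG00020 had 51.7, 53.7 and 57.9 CPM with ABA and 41.4, 33.3 and 34.1 CPM in the control, a rise of 0.59 ± 0.19 (SE; adjusted p = 0.0159, edgeR). Its log2 value was 0.28 with library totals (adjusted p = 0.242, edgeR) and 0.53 without the second WT control library (adjusted p = 0.0507, edgeR). For both ids every ABA library lay above every control library.

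The protease subunit CLP P (ATCG00670) had 6.06, 7.50 and 6.81 CPM in WT with ABA and 4.51, 3.78 and 4.61 CPM in WT control, and rose by 0.66 on the log2 scale (adjusted p = 0.0227, edgeR). The ribosomal protein L2 (ATCG01310) had 9.66, 9.21 and 8.09 CPM in WT with ABA and 5.76, 4.84 and 7.73 CPM in WT control, and rose by 0.55 (adjusted p = 0.0195, edgeR). Neither passed the test with library totals, where the log2 fold changes were 0.35 and 0.25 (adjusted p = 0.194 and 0.242, edgeR), and single WT libraries also ended their calls. Without the second ABA or the second control library CLP P had 0.58 and 0.57 (adjusted p = 0.0758 and 0.0704, edgeR), and without the first ABA, the first control or the second control library L2 had 0.50, 0.51 and 0.41 (adjusted p = 0.0627, 0.0623 and 0.0785, edgeR). In m9, CLP P had 6.23, 8.47 and 4.64 CPM with ABA and 3.29, 4.69 and 5.92 CPM in the control, which overlapped. Of the 6 ids that rose in WT, 3 also rose in m9, which is 50% of the WT list and 11.5% of the m9 list. Over all tested genes, 68.4% of those higher with ABA in WT were also higher in m9, or 84.9% of the m9 list, and the m9 list of plastid genes had 5 members without the second m9 ABA library.

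**Figure D4:**
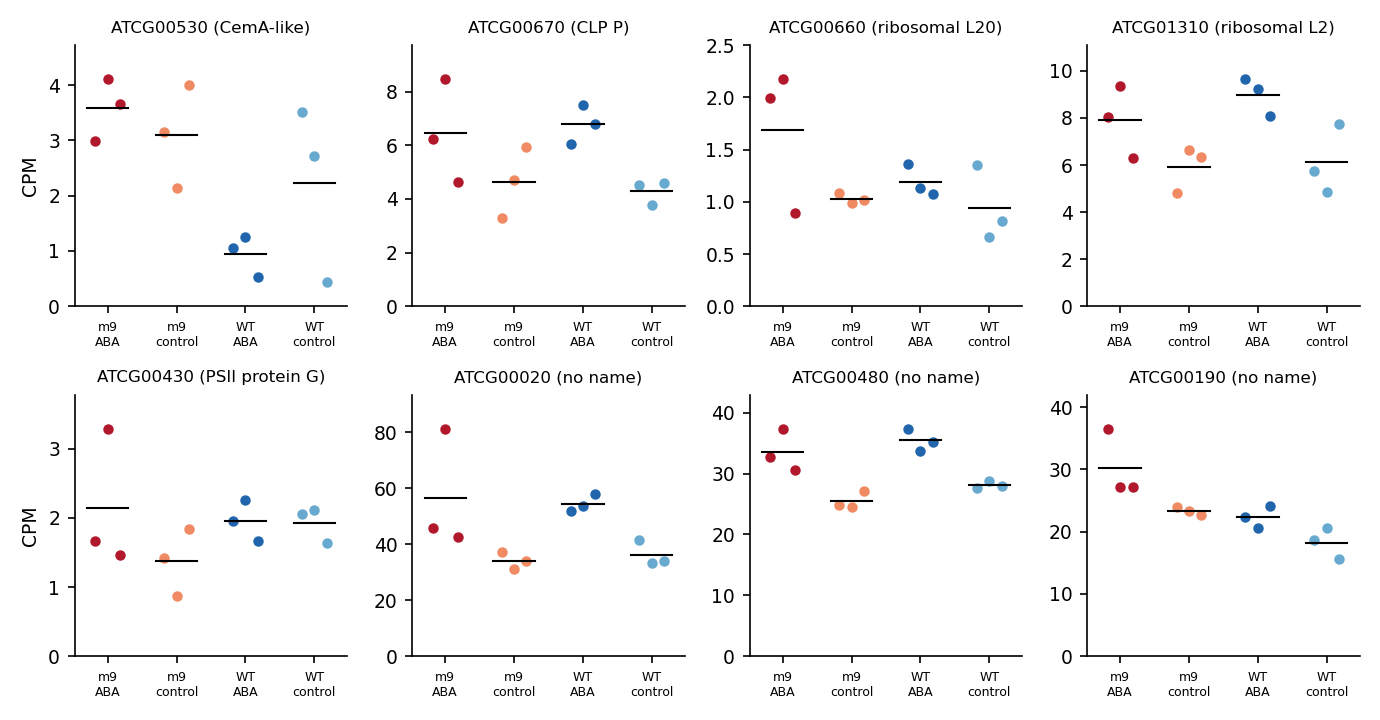
CPM in each library for 5 ids with a noted product and for ATCG00020, ATCG00480 and ATCG00190, by group, with group means as lines; each panel has its own axis from 0. ATCG00480 is higher with ABA in both genotypes, and ATCG00530 is lower in WT with ABA than in m9 with ABA. The panel name of ATCG00430 is that of its note, which matched no plastid gene.

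The comparison of m9 with WT under ABA asked how the genotypes differed in the presence of the hormone. Of the 76 plastid genes, 8 were higher in m9 and 0 lower at an FDR below 0.05, beside 21.3% of all tested genes called higher and 20.7% lower. With the 3-fold minimum 2 were higher, or 2.63% of the 76, and 0 were lower, where 2.63% of all tested genes were called higher and 1.88% lower by this rule. Without overlap between the libraries, 11 of the 76 were higher in m9 and 0 lower, against 30.6% and 30.3% of all tested genes, and the 8 were among the 11. The median log2 fold change was 0.51 over the 76 and 0.02 over all tested genes, and it was 0.03 over the plastid genes without the second m9 ABA library. Without that library 5 were higher, 4 of them among the 8, and 1 was lower, while 33 were higher without the third m9 ABA library and 13 without the third WT control library. With library totals 15 were higher, and relative to the sum of plastid counts 3 were.

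The CemA-like protein (ATCG00530) was among the 8. It had 3.00, 4.12 and 3.66 CPM in m9 with ABA, against 1.05, 1.26 and 0.536 CPM in WT with ABA. Its log2 fold change was 1.89 ± 0.51 (SE; adjusted p = 0.00901, edgeR's quasi-likelihood test with Benjamini-Hochberg adjustment), and 1.75 without the second m9 ABA library (adjusted p = 0.0321, edgeR). In the controls it had 3.14, 2.14 and 4.0 CPM in m9 and 3.51, 2.73 and 0.432 CPM in WT, and the groups overlapped, with 1 WT control library below all the m9 values. With ABA in WT its log2 fold change was -1.18 (adjusted p = 0.0646, edgeR).

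ATCG00400 had 1.71, 3.1 and 1.1 CPM in m9 with ABA and 0.410, 0.670 and 0.857 CPM in WT with ABA. It was higher in m9 by 1.60 on the log2 scale (adjusted p = 0.0079, edgeR), and by 1.08 without the second m9 ABA library (adjusted p = 0.0518, edgeR). ATCG00190, which had no excess in that library, had 22.3, 20.5 and 24.2 CPM in WT with ABA, all below the m9 ABA values given above. It was higher in m9 by 0.44 (adjusted p = 0.0131, edgeR), and by 0.48 without the second m9 ABA library (adjusted p = 0.0186, edgeR). Its value was 0.28 without the first m9 ABA library (adjusted p = 0.0743, edgeR) and 0.38 without the second WT ABA library (adjusted p = 0.0572, edgeR). ATCG00020 had a log2 fold change of 0.05 between m9 and WT with ABA, and it turned to -0.34 without the second m9 ABA library (adjusted p = 0.0368, edgeR).

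In the controls, 0 of the 76 plastid genes were called higher in m9 and 0 lower by edgeR's quasi-likelihood test, beside 2.58% and 2.29% of all tested genes. An unadjusted p below 0.05 was found for 3 of the 76 (3.95%), and the DESeq2 Wald test called 0. The share of all tested genes below this unadjusted p is not given here, so the 3 are not read as a result. The median log2 fold change was 0.06. ATCG00190 had 24.0, 23.3 and 22.6 CPM in m9 control and 18.6, 20.5 and 15.6 CPM in WT control, without overlap, and its log2 fold change of 0.36 did not pass (adjusted p = 0.129, edgeR). The median standard error of a log2 fold change was 0.40 for the plastid genes and 0.14 for all tested genes. Log2 fold changes of the plastid genes lay between -0.74 and 0.87 here, and none was called. Differences larger than the standard error could thus also go undetected.

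The difference between the ABA responses of m9 and WT (the interaction) was called for 0 of the 76 plastid genes in either direction by edgeR, beside 8.62% of all tested genes called higher and 9.55% lower. An unadjusted p below 0.05 was found for 3 of the 76 (3.95%), and the DESeq2 Wald test called 0. Here too the share of all tested genes below this unadjusted p is not given, and the 3 are not read as a result. The median of the difference was 0.49 on the log2 scale, and 0.05 without the second m9 ABA library. With all libraries 26 plastid genes rose with ABA in m9 and 6 in WT, while without the second m9 ABA library 5 rose in m9 and 15 in WT. For no single plastid gene was the response shown to differ between the genotypes.

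**Figure D5:**
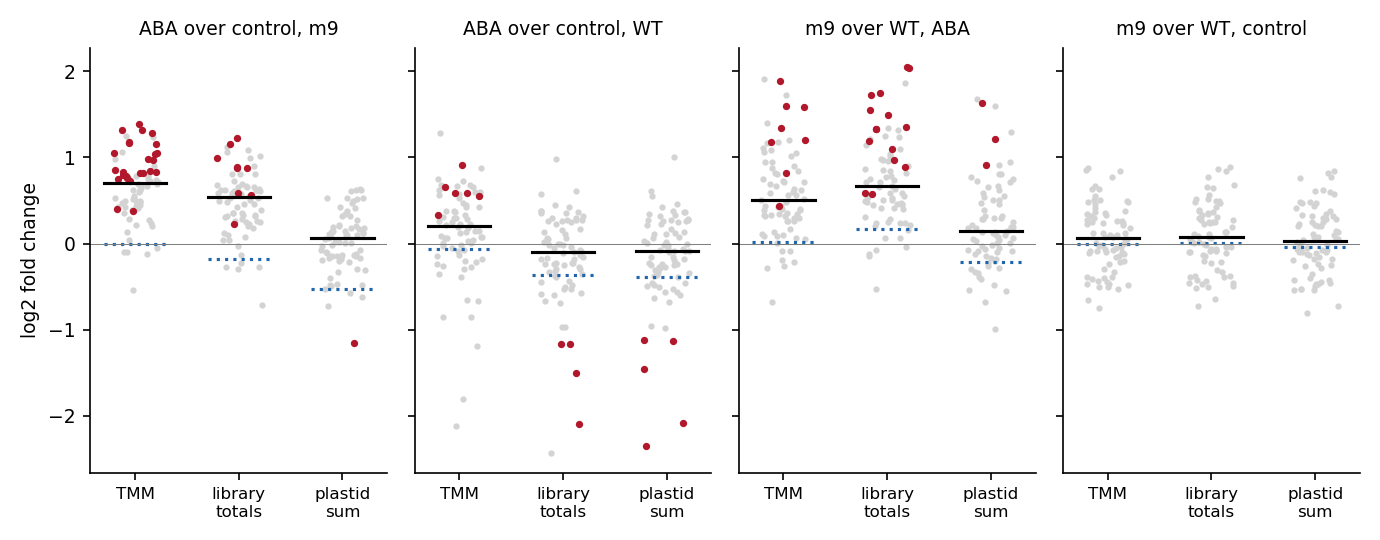
log2 fold changes of the 76 tested plastid genes in 4 comparisons, with TMM factors, with library totals and relative to the sum of plastid counts. Red points passed an FDR below 0.05 and grey points did not, black lines are medians of the plastid genes and dotted blue lines are medians of all tested genes; in WT the red points are above 0 with TMM factors, and other genes, below 0, are red with the other scalings.

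Nuclear genes for plastid transcription were taken from lists of known factors. Their counts stand beside 26.1% of all tested genes called lower with ABA in m9 and 36.4% in WT, and 25.9% called higher in m9 and 32.2% in WT. All 12 of the listed proteins associated with the plastid RNA polymerase fell with ABA in WT, by log2 fold changes between -1.48 and -0.40, and 10 of the 12 fell in m9 with 0 rising, or 9 without the second m9 ABA library. Of the 3 phage-type polymerases, 3 fell in m9 and 2 in WT. These counts include MGP3 (AT1G68990), the enzyme of mitochondria and not of plastids. It fell by log2 fold changes of -0.37 in m9 and -0.89 in WT. SCA3 (AT2G24120), the plastid enzyme, fell with log2 fold changes of -0.90 in m9 (adjusted p = 0.000102, edgeR's quasi-likelihood test) and -1.24 in WT (adjusted p = 2.1e-06, edgeR). Of the 6 sigma factors, 2 rose in each genotype, and 1 fell in m9 and 2 in WT, the WT shares being near those of all tested genes. With library totals 2 sigma factors fell in m9 and 4 in WT, and without the second m9 ABA library 0 fell in m9. SIGE (AT5G24120), which is known for responses to stress and light, rose by 1.17 in m9 (adjusted p = 1.09e-05, edgeR) and by 1.85 in WT (adjusted p = 4.67e-08, edgeR).

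The counts of the next lists also stand beside 26.1% of all tested genes called lower and 25.9% higher with ABA in m9. In WT these shares were 36.4% and 32.2%. Of the 6 listed ribonucleases and RNA-stability proteins of the plastid, 4 fell in m9 and 4 in WT with 0 rising. With library totals 5 fell in each genotype, and without the second m9 ABA library 3 fell in m9. The nuclear genes for the small subunit of Rubisco fell in 3 of 4 cases in m9 and in 4 of 4 in WT. Mitochondrial genes, of which 9 were tested, gave 2 that rose in m9 and 0 in WT, with median log2 fold changes of 0.59 in m9 and 0.34 in WT. The mitochondrial share of counts was 0.0157%, 0.0246% and 0.0150% in m9 with ABA, highest in the second library. It was 0.0156%, 0.0129% and 0.0148% in m9 control. The mitochondrial calls without the second m9 ABA library are not given here. Nuclear ribosomal RNA rose for 1 of 4 genes in each genotype, and with library totals it rose for 0 in each and fell for 2 in WT.

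Markers of green tissue and of root were both present, as in whole seedlings. The summed level of 4 green tissue markers was 34336 to 38002 CPM in m9 with ABA and 33220 to 37387 CPM in m9 control, and 29067 to 32076 CPM in WT with ABA and 32877 to 35443 CPM in WT control. The summed level of 4 root markers was 42.8 to 56.9 CPM in m9 with ABA and 32.7 to 38.3 CPM in m9 control, and 43.7 to 47.8 CPM in WT with ABA and 24.9 to 37.8 CPM in WT control. None of the markers was at 0 in any library. With ABA 0 green markers rose in either genotype, 1 fell in m9 and 2 in WT, while 3 root markers rose in m9 and 2 in WT. Of all tested genes, 25.9% were called higher and 26.1% lower in m9, and 32.2% and 36.4% in WT. The green markers that fell in WT were CA1 and RBCS1A, which is also on the Rubisco list. CAB1 (log2 fold change 0.11) and LHCA1 (-0.07) were not called in WT, nor was the root marker SHV2 in m9 (-0.11). The part of these shifts in the plastid values was not tested.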

How the data were processed

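RNA of seedlings was sequenced in 12 libraries. The deposited table holds whole-number counts per gene, which the authors did not normalise. Per the labels the submitters used Trimmomatic 0.36, HISAT2 2.1.0, HTSeq 0.9.1 and the TAIR10 genome. The methods of the study give other versions of Trimmomatic and HTSeq, another library kit and another seedling age, and the strand setting is not given in the sources used here. Counting rules bear on plastid genes, which share sequence with other genomes and lie close together on both strands.

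Libraries were grouped by the labels. Counts were fitted with edgeR 4.0.16 in R 4.3.3 (limma 3.58.1), with TMM factors, the filterByExpr filter and 1 mean for each of the 4 groups, over 20617 genes. Adjustment over all of them followed Benjamini and Hochberg, with thresholds of FDR 0.05 and a 3-fold change. Depth limits plastid genes: the median plastid gene had 17 to 62 counts in a library. The plastid share of a library, as a percent of its counts, was compared by exact permutation. The method was tested on simulated data. The alternatives were library totals, the sum of plastid counts as library size, DESeq2 1.42.0, other count filters, models of only the groups compared, a replicate block and leaving out each library.

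The plastid genes and the nuclear lists were chosen with earlier results of these data known. The rule was to name the 10 ids with the highest level, 1 for each functional class and the 5 with the largest change each way in a comparison. Because ids carry no symbols here, classes and promoter motifs could not be used, and the text names 2 or 3 ids in a comparison plus those with a noted product. A result for 1 item is not reported here. ATCG01020, ATCG00080 and ATCG01250 were added on the basis of their values. The plots used matplotlib 3.10.9 (Python 3.11.15).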

Additional observations from a re-analysis of the deposited data

Results flagged for a closer look

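For 6 genes of the nuclear lists the response to ABA differed between the genotypes, by the interaction term of edgeR's quasi-likelihood test with Benjamini-Hochberg adjustment over all tested genes, of which 18.2% were called in either direction. The 6 were 1 of 6 sigma factors, 1 of 3 phage-type polymerases, 1 of 12 polymerase-associated proteins, 2 of 4 Rubisco genes and 1 of 4 green markers. Called were 0 of 6 RNA-stability proteins, 0 of 4 nuclear ribosomal RNA genes and 0 of 4 root markers. Whether the lists differ from all tested genes in this was not tested. The differences are the ABA response in m9 minus that in WT on the log2 scale. SIGE (AT5G24120), a sigma factor, rose less in m9, with a difference of -0.68 (adjusted p = 0.0197, edgeR). MGP3 (AT1G68990), the phage-type RNA polymerase of mitochondria, fell less in m9, with 0.52 (adjusted p = 0.0298, edgeR). So did FSD3 (AT5G23310), a superoxide dismutase associated with the plastid RNA polymerase, with 0.70 (adjusted p = 0.0319, edgeR). The Rubisco small subunit genes RBCS1B (AT5G38430) and RBCS2B (AT5G38420) had differences of 1.60 (adjusted p = 0.000283, edgeR) and 0.54 (adjusted p = 0.0327, edgeR), and CA1 (AT3G01500), a carbonic anhydrase used as a green tissue marker, had 0.48 (adjusted p = 0.0481, edgeR).

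Leaving out each library in turn kept the call of RBCS1B throughout (1.49 to 1.81). The call of SIGE (-0.79 to -0.56) ended without the first WT ABA, the first m9 ABA or the second m9 control library. That of MGP3 (0.43 to 0.63) ended without the first or the second WT ABA, the second WT control, the first or the third m9 ABA, or the second or the third m9 control library. The call of FSD3 (0.53 to 0.84) remained only without the second WT ABA, the third WT control, the third m9 ABA or the first m9 control library. That of RBCS2B (0.45 to 0.63) remained only without the second WT ABA, the second or the third WT control, or the first m9 control library, and that of CA1 (0.42 to 0.55) only without the third WT control or the first m9 control library. With a replicate block MGP3, RBCS2B and CA1 did not pass (adjusted p = 0.0548, 0.0512 and 0.0659, edgeR).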

How the results depend on the processing

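Numbers of plastid genes called depended on the scaling. The share of all tested genes called in each changed setting is not given here. The counts below thus do not show whether calls moved more for plastid genes than for other genes. With library totals, 9 rose with ABA in m9, 0 rose and 4 fell with ABA in WT, and 15 were higher in m9 than in WT with ABA. With the sum of plastid counts as library size, 0 rose and 1 fell with ABA in m9, 0 rose and 5 fell in WT, and 3 were higher in m9 with ABA, while ATCG00480 in m9 turned to -0.15 on the log2 scale. The median of all tested genes then moved to -0.53 in m9 and -0.38 in WT, as these scalings shift all genes. The DESeq2 Wald test called 2 lower with ABA in WT, a model of only the 2 WT groups called 14 higher, and a filter of 10 counts in every library, which left 52 plastid genes, gave 5 higher in m9 with ABA. Library totals without the second m9 ABA library, an alternative chosen after seeing the data, gave 0 that rose in m9.

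Leaving out each library in turn gave 5 to 44 genes that rose with ABA in m9, the fewest without the second and the most without the third m9 ABA library. It gave 3 to 15 that rose and 0 to 5 that fell with ABA in WT, 5 to 33 higher and 0 to 1 lower in m9 with ABA, 0 to 1 higher in m9 control and 0 to 1 for the interaction. In m9, 8 rose without the first and 10 without the second control library. In WT, 3 rose without the first or the second ABA library, and 5 fell without the third control library. The difference in plastid share lay between 0.00231 and 0.0208 percentage points for ABA in m9, -0.00249 and 0.00260 for ABA in WT, 0.00330 and 0.0218 for m9 against WT with ABA, and -0.00150 and 0.00360 in the controls.

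Same-numbered libraries did not deviate together, with correlations over all genes between -0.38 and 0.27, so the numbers were not taken as pairs. A replicate block gave 13 that rose with ABA in m9, 12 of them among the 26, and 1 gene higher in the interaction. The causes of these changes were not tested. Depth limits the 17 untested plastid genes and those with few counts in a library.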
